A study of Mus musculus with 32 samples.

Results

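The genes described here control the making of autophagosomes and their delivery to lysosomes: Ulk1, Becn1, Map1lc3a, Map1lc3b, Gabarapl1, Sqstm1, Optn, Tfeb and Lamp2. Every probe set that the platform's probe list assigns to exactly 1 of these symbols was taken, which gave 22 probe sets for 8 of the 9 genes, out of 45037 probe sets other than controls. Optn had no such probe set and was not analysed here. Becn1 had 5 probe sets, Lamp2 and Map1lc3b 4 each, Gabarapl1, Map1lc3a, Sqstm1 and Ulk1 2 each, and Tfeb 1.

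RNA came from the striatum of male mice aged 12 weeks on a mixed CBA and C57Bl/6 background, and 32 Affymetrix arrays were hybridised. The groups were R6/2 mice given HSP990 (8 arrays), R6/2 mice given vehicle (7 arrays), wild-type (WT) mice given HSP990 (10 arrays) and WT mice given vehicle (7 arrays). R6/2 mice carry a transgene of the first exon of human huntingtin with an expanded CAG repeat under the human promoter, and they model Huntington's disease with a fragment of the protein rather than the whole of it. HSP990 is an oral inhibitor of the chaperone HSP90, and the series' design text gives 12 mg/kg and 4 h. No animal is identified in the labels, which number the replicates only, so p-values measure only the spread between these samples.

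Macroautophagy encloses cytoplasm in a double membrane, the autophagosome, which fuses with the lysosome for degradation of its content. The ULK1 kinase complex starts the process, the lipid kinase complex that contains Beclin 1 marks the membrane, and proteins of the LC3 and GABARAP families are joined to membrane lipid, where they bind receptors such as p62 (Sqstm1) and optineurin (Optn) that carry ubiquitinated cargo. TFEB is a transcription factor that raises lysosomal and autophagy genes when it enters the nucleus. Clearance of huntingtin fragments by this route is a long-studied question in Huntington's disease models. Much of the control of these proteins lies in phosphorylation, lipid conjugation and turnover, which RNA levels do not measure.

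Values are log2 signals, normalized between arrays by the authors, and a difference of 1 is a doubling. Array medians lay between 5.73 and 5.78. Precision depends on how many arrays a group has and on the spread of each probe set. Some arrays stood apart in RNA quality, measured as the mean 3′ minus 5′ log2 signal of the Gapdh and Actb control probe sets. This 3′ bias averaged 1.83 in R6/2 HSP990 arrays (range 0.870 to 4.56), 1.15 in R6/2 vehicle arrays (0.784 to 2.11), 1.05 in WT HSP990 arrays (0.637 to 1.61) and 1.42 in WT vehicle arrays (0.824 to 2.45). The highest values were in R6/2 HSP990 replicate 5 and WT vehicle replicate 5. Within groups, 6 of the 22 probe sets correlated with the Gapdh 3′ minus 5′ signal below -0.5 and 1 above 0.5. Every within-group correlation with RNA quality given below is with this Gapdh signal alone. The covariate is the mean of both controls, and values with it are given where they changed a call. Among 8 measured spiny neuron markers, 7 were lower in R6/2 than in WT mice both on vehicle and under HSP990, and the mean of the list ran from 9.64 to 10.7 in R6/2 HSP990 arrays, 9.48 to 11.1 in R6/2 vehicle arrays, 11.7 to 12.2 in WT HSP990 arrays and 11.7 to 12.1 in WT vehicle arrays. Over all genes (1 probe set per gene), 10.7% were called higher and 8.71% lower in R6/2 mice on vehicle. Under HSP990 these shares were 21.7% and 10.5%, and the marker counts stand beside them. Among 9 microglial markers, 3 were lower in R6/2 mice on vehicle and 4 under HSP990, and none was higher. Among 7 oligodendrocyte markers 2 were lower on vehicle and 5 under HSP990. Among 7 astrocyte markers 1 was lower on vehicle, and 1 was higher and 3 lower under HSP990. Of 5 endothelial markers 1 was lower under HSP990, and Flt1 was higher after HSP990 in both genotypes. Of the 8 spiny neuron markers, 2 (Drd1 and Gpr6) were lower after HSP990 in R6/2 mice, and none was called in WT mice. HSP990 against vehicle was called, in either direction, for 2.81% of all probe sets in R6/2 mice and 4.63% in WT mice. None of 6 choroid plexus markers was called, but their mean level varied widely, from 6.19 to 9.18 in R6/2 HSP990 arrays, 5.72 to 7.67 in R6/2 vehicle arrays, 6.05 to 9.92 in WT HSP990 arrays and 6.08 to 9.54 in WT vehicle arrays. Their median change of R6/2 against WT was -1.01 on vehicle and 0.092 under HSP990. In pieces of tissue, fewer cells of a type and less RNA per cell cannot be told apart, and the part of cell make-up in the results below was not tested.

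Ulk1 was the gene with the clearest difference between genotypes: its RNA was 1.33-fold higher in R6/2 than in WT striatum on vehicle and 1.51-fold higher under HSP990. Of the 22 probe sets, 1 was called on vehicle (4.55%, against 15.1% of all probe sets) and 6 under HSP990 (27.3%, against 27.2%), and all of these were higher in R6/2 mice (higher calls were 8.06% and 15.8% of all probe sets). A call means an adjusted p under 0.05 from limma over all probe sets. The members' shares were thus below the background on vehicle and level with it under HSP990. Their median change was 0.11 on vehicle and 0.15 under HSP990, against -0.0097 and 0.012 over all probe sets. HSP990 moved few of them: 0 of 22 were called in R6/2 mice (2 at an unadjusted p under 0.05, smallest adjusted p = 0.291 from limma), against 2.81% of all probe sets, and 0 were called there under any of the other settings tried. In WT mice 1 was called, as higher (4.55%, against 4.63% called and 2.43% called higher). No member passed the test of a different response to HSP990 between the genotypes, where 0.271% of all probe sets were called (4 members at an unadjusted p under 0.05, smallest adjusted p = 0.252).

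**Figure D1:**
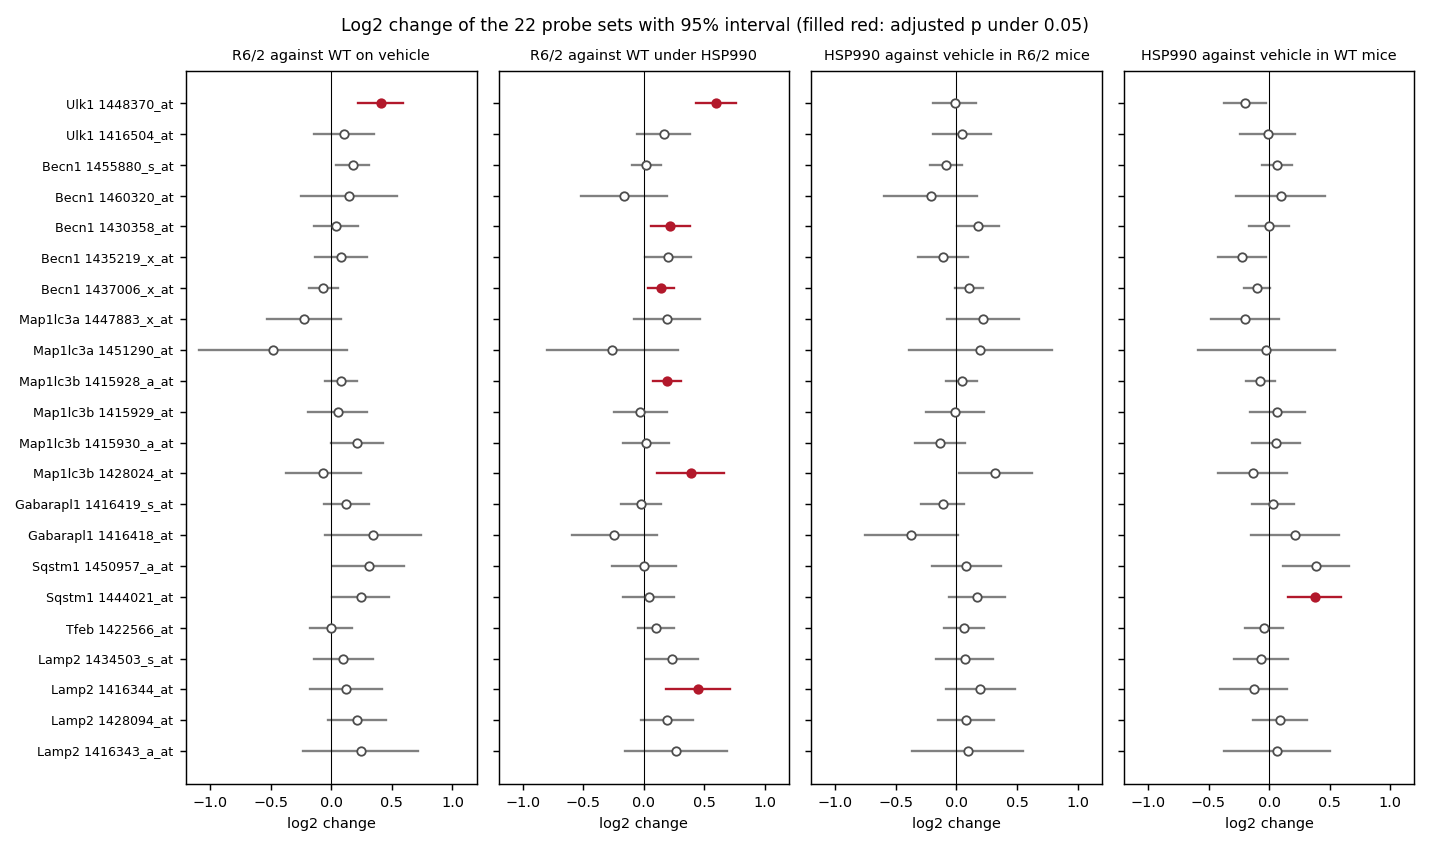
Log2 change of each of the 22 probe sets (points) with its 95% interval (lines) in 4 comparisons, R6/2 against WT mice on vehicle and under HSP990 and HSP990 against vehicle in R6/2 and in WT mice. Filled red marks an adjusted p under 0.05: Ulk1 1448370_at in both genotype comparisons (0.41 and 0.59), 5 other probe sets under HSP990, and Sqstm1 1444021_at (0.38) in the response of WT mice.

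Ulk1 encodes the kinase that starts autophagosome formation. Its brighter probe set, 1448370_at, read 8.85, 9.07 and 9.33 (lowest, median and highest) in R6/2 HSP990 arrays and 8.75, 8.99 and 9.36 in R6/2 vehicle arrays. In WT HSP990 arrays it read 8.19, 8.51 and 8.61, and in WT vehicle arrays 8.51, 8.58 and 8.95. Every R6/2 HSP990 array lay above every WT HSP990 array. The groups of 6.89% of all probe sets did not overlap in this comparison, in one direction or the other. No other member's groups were apart in this comparison, and none of the 22 in R6/2 against WT on vehicle (2.84% of all probe sets) or in HSP990 against vehicle in R6/2 mice (0.611%) or WT mice (1.18%). The log2 change of R6/2 against WT was 0.41 ± 0.09 on vehicle (SE, n = 7 each, limma adjusted p = 0.0018) and 0.59 ± 0.08 under HSP990 (n = 8 and 10, limma adjusted p = 9.22e-07). With each array left out in turn the change stayed within 0.36 to 0.46 on vehicle and 0.55 to 0.62 under HSP990, and it was called each time. With the 3′ bias as a covariate it was 0.41 and 0.59. HSP990 against vehicle gave -0.01 ± 0.09 in R6/2 mice (95% interval -0.19 to 0.16) and -0.20 ± 0.08 in WT mice (limma adjusted p = 0.197), and the difference of these responses, 0.18 ± 0.12, did not pass the test (adjusted p = 0.553).

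The other Ulk1 probe set, 1416504_at, was dim, with group means of 6.02 in R6/2 HSP990, 5.97 in R6/2 vehicle, 5.85 in WT HSP990 and 5.86 in WT vehicle arrays, near the median over all probe sets (5.77). Its changes of 0.11 ± 0.12 on vehicle and 0.16 ± 0.11 under HSP990 were not called (limma adjusted p = 0.633 and 0.301). It fell with the Gapdh 3′ minus 5′ signal within groups (r = -0.75, 32 arrays) while 1448370_at did not (r = -0.07). With the 3′ bias as a covariate the change of 1416504_at under HSP990 was 0.36 ± 0.08 (limma adjusted p = 0.000741). Within groups the 2 probe sets did not move together (r = -0.10).

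The Ulk1 gene lies on chromosome 5 (110784489 to 110810120 in GRCm38.p6). Its promoter is shown because Ulk1 is the member that differed in both genotype comparisons. The RefSeq window of 250 bases before and 50 after the start, chr5:110810032-110810331 on the minus strand, is printed with matches to the motifs searched in capitals. The motifs, searched on both strands, were the heat shock element in its head-to-head (GAANNTTC) and tail-to-tail (TTCNNGAA) forms, the CLEAR site bound by TFEB (TCACGTGA), the E-box (CACGTG), which lies within the CLEAR site, the antioxidant response element core (TGACNNNGC), and the GC box (GGGCGG), which was added after the sequences had been seen.
Ulk1: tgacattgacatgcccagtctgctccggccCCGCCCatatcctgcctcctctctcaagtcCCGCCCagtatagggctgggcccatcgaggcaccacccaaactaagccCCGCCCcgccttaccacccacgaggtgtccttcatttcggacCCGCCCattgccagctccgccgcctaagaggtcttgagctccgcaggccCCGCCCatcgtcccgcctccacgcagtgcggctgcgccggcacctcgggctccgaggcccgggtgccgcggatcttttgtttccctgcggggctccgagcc
All capitals in this window belong to 5 GC boxes, and 2.71% of 32851 mouse promoters of the same length in the table hold as many. No match to the other 5 motifs was present, which says only that these letters are not in this window. GC content was 68% (median of all promoters 52.7%), with 26 CpG dinucleotides (median 7). Over all promoters, 7.86% hold the head-to-head and 8.52% the tail-to-tail heat shock form, 0.974% the CLEAR site, 7.15% an E-box, 12.4% the antioxidant core and 35.7% a GC box. A match is a description of letters and not evidence of binding.

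**Figure D2:**
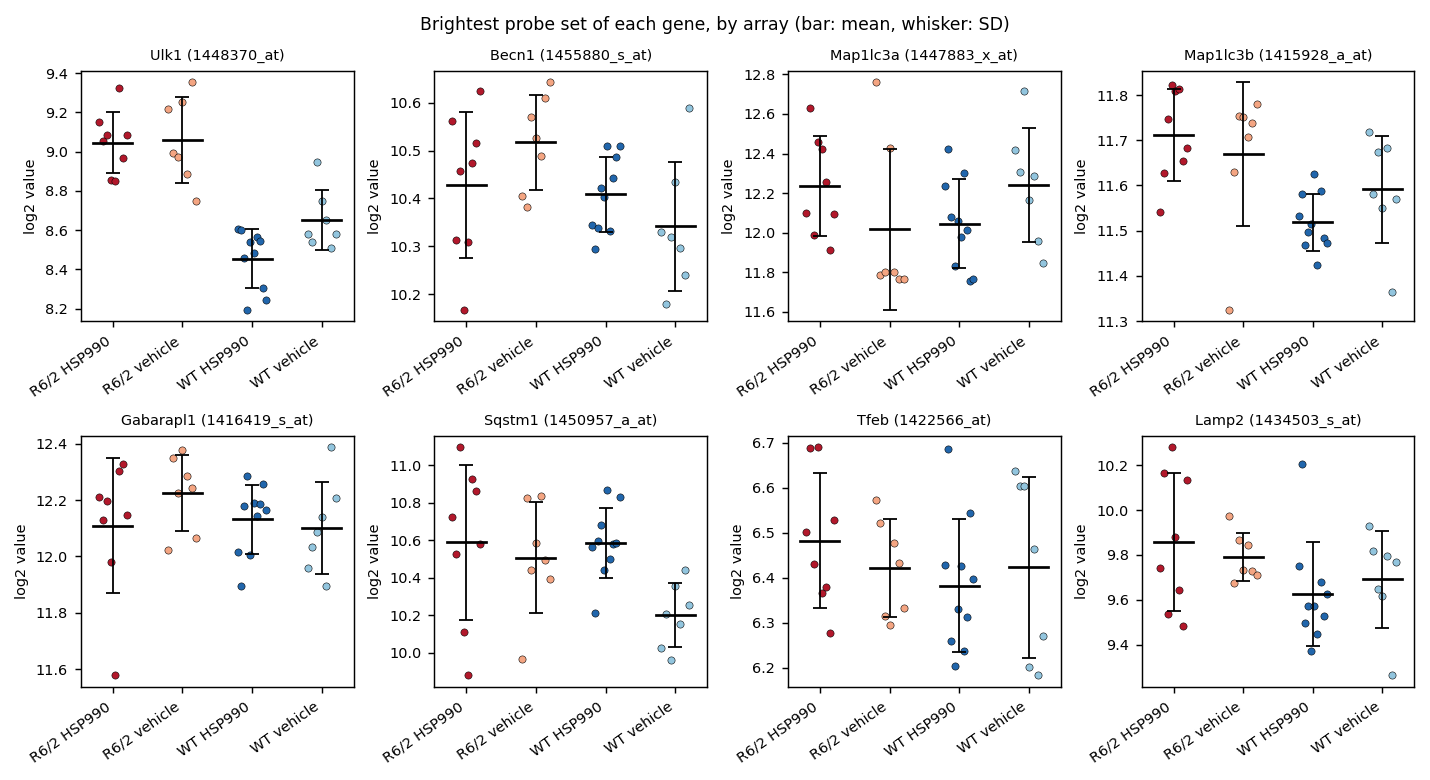
Log2 value of every array for the probe set with the highest mean of each gene, by group (R6/2 HSP990, R6/2 vehicle, WT HSP990, WT vehicle), with the group mean (bar) and SD (whisker); each panel has its own axis, which does not start at 0. In the Ulk1 panel the R6/2 HSP990 arrays (8.85 to 9.33) lie above all WT HSP990 arrays (8.19 to 8.61); in the other panels groups overlap.

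Becn1 encodes Beclin 1, a subunit of the class III phosphatidylinositol 3-kinase complexes. Its brightest probe set, 1455880_s_at, read 10.17, 10.47 and 10.63 (lowest, median and highest) in R6/2 HSP990 arrays, 10.38, 10.53 and 10.64 in R6/2 vehicle arrays, 10.29, 10.41 and 10.51 in WT HSP990 arrays, and 10.18, 10.32 and 10.59 in WT vehicle arrays. All groups overlapped. R6/2 against WT gave 0.18 ± 0.07 on vehicle (limma adjusted p = 0.0745) and 0.02 ± 0.06 under HSP990 (adjusted p = 0.862). Without WT vehicle replicate 7, the highest array of its group, the vehicle value was called (adjusted p = 0.0225), as it was with array weights (0.03) and quantile normalization (0.043).

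The calls on Becn1 under HSP990 came from dim probe sets. 1430358_at had group means of 5.99 and 5.77 in R6/2 and WT mice under HSP990 (change 0.22 ± 0.08, limma adjusted p = 0.0382), and 1437006_x_at had 4.26 and 4.13 (0.14 ± 0.05, adjusted p = 0.0427). Each lost its call when any 1 of 10 arrays was left out, R6/2 HSP990 replicates 1, 4, 5 and 8 and WT HSP990 replicates 2, 4, 5, 6, 7 and 10 for 1430358_at (adjusted p 0.0503 to 0.124), and R6/2 HSP990 replicates 3, 5 and 8 and WT HSP990 replicates 1, 2, 3, 5, 6, 7 and 10 for 1437006_x_at (0.0547 to 0.123). With the 3′ bias as a covariate their adjusted p was 0.247 and 0.21. A further bright probe set, 1460320_at, gave -0.16 ± 0.17 under HSP990 and 0.15 ± 0.20 on vehicle. It ran against the Gapdh 3′ minus 5′ signal within groups (r = -0.70). With the 3′ bias as a covariate it gave 0.17 ± 0.12 under HSP990 (limma adjusted p = 0.331). With this covariate all 5 Becn1 probe sets lay between 0.08 and 0.17 under HSP990, and none was called (adjusted p 0.21 to 0.41). The dimmer 1435219_x_at gave 0.20 ± 0.09 under HSP990 (limma adjusted p = 0.127, and 0.0234 in a fit of the HSP990 groups alone).

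The LC3 and GABARAP genes encode the small ubiquitin-like proteins that are joined to the autophagosome membrane. Map1lc3b, whose lipid-bound protein is the usual marker of autophagosomes, read 11.54, 11.72 and 11.82 (lowest, median and highest) at 1415928_a_at in R6/2 HSP990 arrays, 11.32, 11.74 and 11.78 in R6/2 vehicle arrays, 11.42, 11.51 and 11.63 in WT HSP990 arrays, and 11.37, 11.58 and 11.72 in WT vehicle arrays. The groups overlapped, although the R6/2 HSP990 median lay above the highest WT HSP990 array. R6/2 mice were higher under HSP990 by 0.19 ± 0.06 (1.14-fold, n = 8 and 10, limma adjusted p = 0.0103), and the call held with each array left out (0.18 to 0.22). On vehicle the change was 0.08 ± 0.06 (95% interval -0.05 to 0.21).

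The other Map1lc3b probe sets did not all give this difference in the fit without a covariate. 1415929_at and 1415930_a_at, both bright, gave -0.03 ± 0.11 and 0.02 ± 0.09 under HSP990. With the 3′ bias as a covariate these were 0.09 ± 0.11 and 0.18 ± 0.07 (limma adjusted p = 0.615 and 0.066), beside 0.18 ± 0.06 for 1415928_a_at (adjusted p = 0.0372). The dim 1428024_at gave 0.39 ± 0.14 (means 5.59 and 5.2 in R6/2 and WT mice, limma adjusted p = 0.0305), and it lost the call without R6/2 HSP990 replicate 2, 3 or 4 or WT HSP990 replicate 3, 9 or 10 (adjusted p 0.0509 to 0.0853) and with the 3′ bias as a covariate (0.155). Within groups, 1415928_a_at correlated with 1415929_at at r = 0.38 and with 1428024_at at r = -0.11.

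The Map1lc3b gene lies on chromosome 8 (121590438 to 121598760 in GRCm38.p6), and its promoter, chr8:121590188-121590487 on the plus strand, is shown because it is the one member window analysed here with an antioxidant response element core.
Map1lc3b: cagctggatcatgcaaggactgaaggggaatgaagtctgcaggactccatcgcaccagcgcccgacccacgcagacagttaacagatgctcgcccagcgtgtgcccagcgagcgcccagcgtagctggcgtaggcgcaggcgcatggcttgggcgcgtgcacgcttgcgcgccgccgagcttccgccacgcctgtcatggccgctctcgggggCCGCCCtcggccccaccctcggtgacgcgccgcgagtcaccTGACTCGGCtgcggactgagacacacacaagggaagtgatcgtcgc
Capitals mark 1 GC box, which begins 37 bases before the start, and 1 match to the antioxidant core, TGACTCGGC, whose match begins 4 bases after the start. The window has 34 CpG dinucleotides and 68% GC. No heat shock, CLEAR or E-box letters were matched in it.

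Map1lc3a, the gene of another LC3 protein, was not called in any comparison. At 1447883_x_at it read 11.92, 12.18 and 12.63 in R6/2 HSP990 arrays, 11.77, 11.80 and 12.76 in R6/2 vehicle arrays, 11.76, 12.04 and 12.43 in WT HSP990 arrays, and 11.85, 12.29 and 12.71 in WT vehicle arrays, with all groups overlapping. R6/2 against WT gave -0.23 ± 0.15 on vehicle and 0.19 ± 0.13 under HSP990, and the difference of the responses to HSP990, 0.41 ± 0.20, did not pass the test. Its other probe set, 1451290_at, spread over about 2 log2 units within R6/2 groups (8.79 to 10.64 with HSP990, 8.79 to 10.97 on vehicle), and its changes had 95% intervals as wide as -1.09 to 0.13.

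Gabarapl1, a GABARAP-family gene, was also not called in any comparison. Its values followed the Gapdh 3′ minus 5′ signal of the arrays more closely than those of any other member. At 1416418_at it read 9.73, 11.18 and 11.59 in R6/2 HSP990 arrays, 11.08, 11.34 and 11.65 in R6/2 vehicle arrays, 10.81, 11.27 and 11.60 in WT HSP990 arrays, and 10.31, 11.07 and 11.45 in WT vehicle arrays. The lowest values were those of R6/2 HSP990 replicate 5 and WT vehicle replicate 5, the arrays of strongest 3′ bias. Within groups its correlation with the Gapdh 3′ minus 5′ signal was -0.94, and that of 1416419_s_at -0.86 (32 arrays each). The response of R6/2 mice minus that of WT mice was -0.59 ± 0.26 (limma adjusted p = 0.337), and -0.05 ± 0.10 with the bias as a covariate. With the covariate 1416418_at was higher in R6/2 mice on vehicle by 0.21 ± 0.07 (adjusted p = 0.0308), and 1416419_s_at under HSP990 by 0.14 ± 0.05 (adjusted p = 0.0389), against -0.02 ± 0.08 without it.

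**Figure D3:**
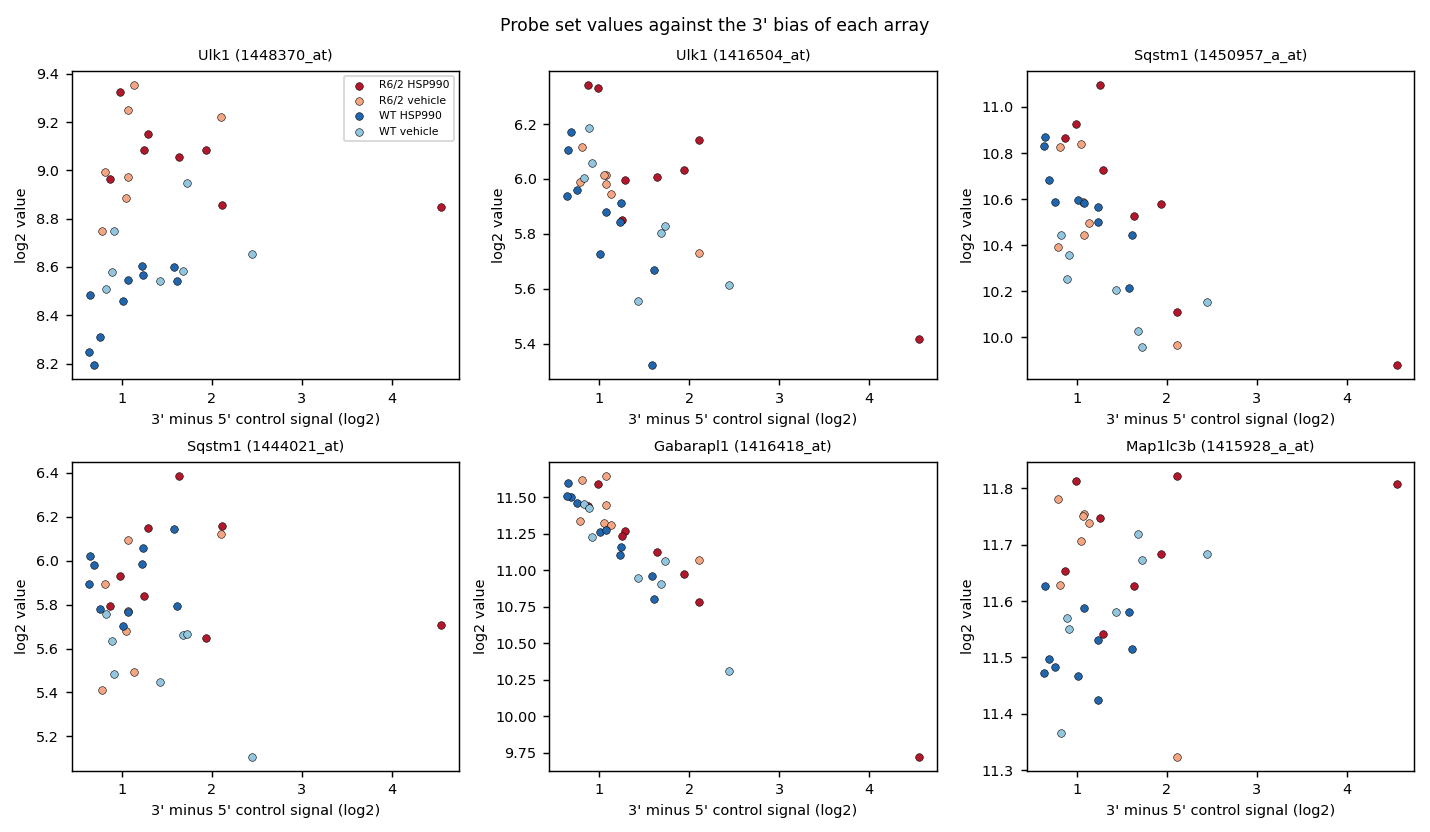
Log2 value of each array against its 3′ bias (mean 3′ minus 5′ log2 signal of the Gapdh and Actb controls) for 6 probe sets, with groups by colour; axes do not start at 0. Within-group r is given against the Gapdh signal alone, a part of the plotted bias. It is -0.94, -0.73 and -0.75 for Gabarapl1 1416418_at, Sqstm1 1450957_a_at and Ulk1 1416504_at. For Ulk1 1448370_at and Map1lc3b 1415928_a_at it is -0.07 and 0.17.

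Sqstm1 encodes p62, a receptor that binds ubiquitin on cargo and LC3 on the membrane. Both of its probe sets were about 1.3-fold higher after HSP990 in WT mice, and 1 of them passed the test. The dim 1444021_at read 5.65, 5.88 and 6.39 (lowest, median and highest) in R6/2 HSP990 arrays, 5.41, 5.77 and 6.12 in R6/2 vehicle arrays, 5.70, 5.94 and 6.15 in WT HSP990 arrays, and 5.11, 5.64 and 5.76 in WT vehicle arrays. The WT groups overlapped only between 5.70 and 5.76. In WT mice the change was 0.38 ± 0.11 (n = 10 and 7, limma adjusted p = 0.0361), and in R6/2 mice 0.17 ± 0.11 (n = 8 and 7, adjusted p = 0.521). The WT call was lost without WT HSP990 replicate 1, 2, 4, 6, 7 or 10 or WT vehicle replicate 2, 4 or 5 (adjusted p 0.0522 to 0.108), and with the 3′ bias as a covariate (0.36 ± 0.11, adjusted p = 0.0531).

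The bright Sqstm1 probe set, 1450957_a_at, read 9.88, 10.65 and 11.10 in R6/2 HSP990 arrays, 9.97, 10.50 and 10.84 in R6/2 vehicle arrays, 10.21, 10.59 and 10.87 in WT HSP990 arrays, and 9.96, 10.21 and 10.44 in WT vehicle arrays. The WT vehicle arrays were the lowest group by median, and all groups overlapped. HSP990 against vehicle gave 0.39 ± 0.13 in WT mice (limma adjusted p = 0.0942) and 0.08 ± 0.14 in R6/2 mice (adjusted p = 0.853). The WT value was called without R6/2 HSP990 replicate 5 (adjusted p = 0.0487), with array weights (0.0234) and in a fit of the WT groups alone (0.0106). R6/2 against WT gave 0.31 ± 0.14 on vehicle (adjusted p = 0.163, and 0.0491 without R6/2 vehicle replicate 1) and 0.00 ± 0.13 under HSP990.

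With the 3′ bias as a covariate the 4 changes of 1450957_a_at lay between 0.22 and 0.30. HSP990 against vehicle gave 0.30 ± 0.09 in R6/2 mice (limma adjusted p = 0.0884) and 0.27 ± 0.08 in WT mice (adjusted p = 0.0622). R6/2 against WT gave 0.22 ± 0.09 on vehicle (adjusted p = 0.0964) and 0.25 ± 0.09 under HSP990, the one that was called (adjusted p = 0.0335). The difference of the responses to HSP990 was -0.31 ± 0.19 without the covariate and 0.03 ± 0.13 with it, and it passed the test in neither fit. Within groups the 2 Sqstm1 probe sets did not move together (r = -0.13).

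The Sqstm1 gene lies on chromosome 11 (50200152 to 50210820 in GRCm38.p6). Its promoter, chr11:50210771-50211070 on the minus strand, is shown because Sqstm1 is the member whose RNA was called after the HSP90 inhibitor.
Sqstm1: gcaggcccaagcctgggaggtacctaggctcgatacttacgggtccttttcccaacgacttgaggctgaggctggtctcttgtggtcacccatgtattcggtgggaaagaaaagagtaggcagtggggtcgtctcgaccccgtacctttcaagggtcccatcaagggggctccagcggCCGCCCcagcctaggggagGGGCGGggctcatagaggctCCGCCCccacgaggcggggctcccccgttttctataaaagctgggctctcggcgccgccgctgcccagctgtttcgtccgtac
Capitals mark 3 GC boxes, which begin 72, 53 and 33 bases before the start. None of the heat shock, CLEAR, E-box or antioxidant core letters were matched in these 300 bases. The window of Optn, whose RNA was not analysed here, held 1 head-to-head heat shock match and 2 GC boxes. Those of Gabarapl1, Tfeb (3 windows) and Lamp2 held GC boxes only, 2 in Gabarapl1 and Lamp2 and 1 or 2 in each window of Tfeb. Becn1 and Map1lc3a are not in the table.

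Tfeb encodes a transcription factor of lysosomal and autophagy genes, and its RNA did not differ detectably between any groups. Its probe set, 1422566_at, read 6.28, 6.47 and 6.69 in R6/2 HSP990 arrays, 6.30, 6.43 and 6.57 in R6/2 vehicle arrays, 6.20, 6.36 and 6.69 in WT HSP990 arrays, and 6.18, 6.46 and 6.64 in WT vehicle arrays. The groups overlapped over nearly their whole ranges. R6/2 against WT gave 0.00 ± 0.08 on vehicle (95% interval -0.17 to 0.17) and 0.10 ± 0.07 under HSP990 (-0.05 to 0.25). HSP990 against vehicle gave 0.06 ± 0.08 in R6/2 mice (-0.10 to 0.23) and -0.04 ± 0.08 in WT mice (-0.20 to 0.12).

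Lamp2 encodes an abundant glycoprotein of the lysosomal membrane, one isoform of which serves chaperone-mediated autophagy. Under HSP990, 1416344_at was 1.36-fold higher in R6/2 than in WT mice. It read 9.39, 9.70 and 10.25 in R6/2 HSP990 arrays, 9.04, 9.69 and 9.88 in R6/2 vehicle arrays, 8.98, 9.17 and 10.02 in WT HSP990 arrays, and 9.12, 9.33 and 9.77 in WT vehicle arrays. The WT HSP990 arrays lay lowest by median, except replicate 2, which at 10.02 stood above the other 9 (8.98 to 9.41). The log2 change under HSP990 was 0.44 ± 0.13 (n = 8 and 10, limma adjusted p = 0.00906), and with each array left out it was called each time (0.37 to 0.53). On vehicle it was 0.12 ± 0.15.

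The other 3 Lamp2 probe sets pointed the same way under HSP990 without passing the test. 1434503_s_at gave 0.23 ± 0.11 (limma adjusted p = 0.11), and was called without WT HSP990 replicate 2 (adjusted p = 0.0209) or R6/2 HSP990 replicate 7 (0.0442). 1428094_at gave 0.19 ± 0.10 and 1416343_a_at 0.27 ± 0.21. On vehicle these gave 0.10 ± 0.12, 0.21 ± 0.12 and 0.24 ± 0.23. HSP990 against vehicle moved no Lamp2 probe set past the test, with changes of 0.07 to 0.20 in R6/2 mice and -0.13 to 0.09 in WT mice.

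The wider pathway was counted over 129 measured genes of 11 lists, with 1 probe set per gene. The lists include the 8 measured members, so Ulk1 is among the higher genes in both genotype comparisons and Map1lc3b under HSP990. On vehicle 16 were higher and 5 lower in R6/2 than in WT mice (background 10.7% higher and 8.71% lower of 18193 genes), and under HSP990 36 were higher and 7 lower (background 21.7% and 10.5%). Of these, 14 genes were called in both comparisons, which is 14 of 21 called on vehicle and 14 of 43 called under HSP990. The comparisons use different arrays but share 1 fit and 1 estimate of spread per probe set. The share of all genes called in both was not counted, so the 14 are a count only. The median over the 129 genes was 0.078 on vehicle and 0.11 under HSP990, against -0.0053 and 0.038 over all genes. HSP990 against vehicle was called for 3 genes in R6/2 mice, all higher (background 2.06% higher), and for 2 higher and 7 lower in WT mice (background 2.09% and 3.28%). No gene of the lists passed the test of a different response between genotypes in this fit (0.253% of all genes did), and with array weights or without R6/2 vehicle replicate 1 there was 1. On vehicle the count of called genes was 12 in a fit of the vehicle groups alone and 37 with array weights.

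**Figure D4:**
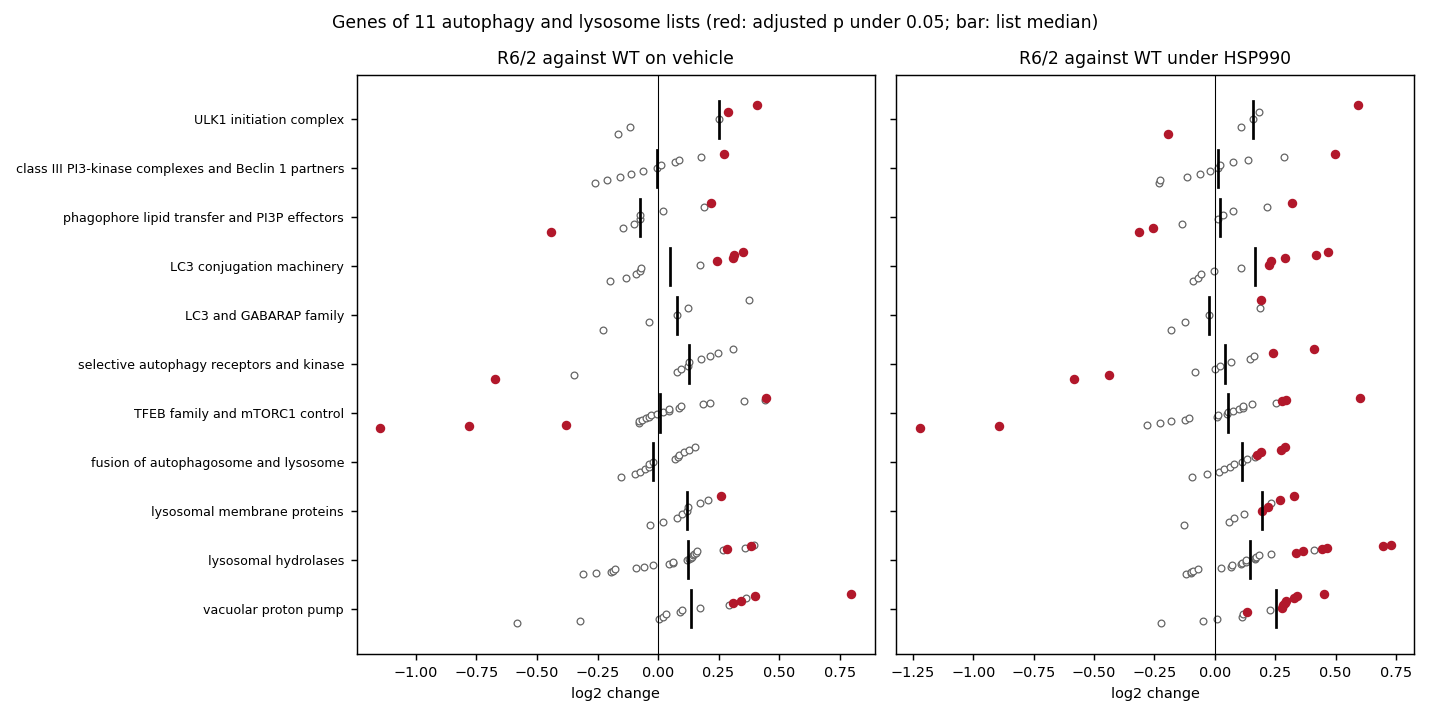
Log2 change of R6/2 against WT mice for each gene (points) of 11 autophagy and lysosome lists, on vehicle (left) and under HSP990 (right), with the list median (bar); filled red marks an adjusted p under 0.05. The vacuolar proton pump list has medians of 0.14 on vehicle and 0.25 under HSP990, and Foxo1 (-1.15 and -1.22) and Rragd (-0.78 and -0.89) are the points farthest to the left.

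Of the initiation and nucleation partners, Rb1cc1 (FIP200, the scaffold of the ULK1 complex) was higher in R6/2 mice on vehicle by 0.29 ± 0.08 (limma adjusted p = 0.0157), and Nrbf2, a subunit of the Beclin 1 kinase complex, was higher under HSP990 by 0.50 ± 0.08 (adjusted p = 8.04e-06). Atg101, another ULK1 complex subunit, fell by 0.31 after HSP990 in WT mice (-0.31 ± 0.07, adjusted p = 0.0087). For the list counts that follow, 10.7% of all genes were higher and 8.71% lower on vehicle, and 21.7% and 10.5% under HSP990. Of the 5 ULK1 complex genes, Ulk1 and Rb1cc1 were higher on vehicle, and Ulk1 was higher and Atg13 lower under HSP990. The Atg13 change (-0.19 ± 0.07, limma adjusted p = 0.0359) lost its call without any 1 of 7 arrays and under 4 other settings. Of 11 genes of the class III kinase complexes and Beclin 1 partners, Nrbf2 alone was called in either genotype comparison. Of 10 genes of the LC3 conjugation machinery, 4 were higher on vehicle and 5 under HSP990, and none was lower. The vehicle count was 1 with only the groups compared, 2 with quantile normalization, and 1 or 2 without R6/2 vehicle replicate 2, 3 or 6 or WT vehicle replicate 1, 2, 6 or 7. The HSP990 count was 2 with the 3′ bias as a covariate and 3 with the replicate block. Atg5, part of the conjugating enzyme complex, was higher by 0.35 ± 0.09 on vehicle and 0.42 ± 0.08 under HSP990 (adjusted p = 0.00489 and 7.51e-05), and Atg4a, a protease that primes these proteins, by 0.47 ± 0.09 under HSP990.

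The same background (10.7% higher and 8.71% lower on vehicle, 21.7% and 10.5% under HSP990) holds for membrane supply and receptor genes. Of 8 genes of membrane supply, 1 was higher and 1 lower in R6/2 mice on vehicle, and 1 was higher and 2 lower under HSP990. Wdr45b, whose protein binds a phosphoinositide of the membrane, was the higher gene in both, by 0.32 ± 0.06 under HSP990 (limma adjusted p = 3.77e-05). Its vehicle call was lost with only the groups compared. The higher count under HSP990 was 2 with array weights, with only the groups compared, without dim probe sets and without R6/2 HSP990 replicate 4, R6/2 vehicle replicate 1 or WT vehicle replicate 3 or 7. Zfyve1 (DFCP1) was lower in R6/2 than in WT mice under HSP990 (-0.32 ± 0.06, limma adjusted p = 0.000307) and rose after HSP990 in WT mice (0.34 ± 0.07, adjusted p = 0.00176). Atg9a, a lipid scramblase of the growing membrane, was lower in R6/2 mice on vehicle (-0.44 ± 0.12). Among 10 genes of receptors and their kinase, 0 were higher and 1 lower on vehicle, and 2 were higher and 2 lower under HSP990. Under HSP990 Tollip (0.41 ± 0.06) and the kinase Tbk1, which phosphorylates receptors (0.24 ± 0.05), were higher. Calcoco1 (-0.58 ± 0.17) and Bnip3 (-0.44 ± 0.13, limma adjusted p = 0.0121) were lower. The Bnip3 call was lost with the 3′ bias as a covariate (0.0907) and with the replicate block (0.0551).

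Genes of TFEB and mTORC1 control were called in both directions, as were genes over the whole array. Of 20, 1 was higher and 3 lower in R6/2 mice on vehicle, and 3 were higher and 2 lower under HSP990. Shares over all genes were 10.7% higher and 8.71% lower on vehicle, and 21.7% and 10.5% under HSP990. Flcn, which encodes folliculin, an activator of RagC and RagD at the lysosome, was higher in R6/2 mice on vehicle and under HSP990 (0.44 ± 0.09 and 0.60 ± 0.08, limma adjusted p = 0.00116 and 1.26e-06). Rragd, the RagD gene, was lower (-0.78 ± 0.10 and -0.89 ± 0.09, adjusted p = 1e-06 and 2.53e-09). Its arrays did not overlap between genotypes, at 10.10 to 10.47 in R6/2 HSP990 against 10.88 to 11.36 in WT HSP990 arrays, and 10.18 to 10.74 in R6/2 vehicle against 10.96 to 11.50 in WT vehicle arrays. The same was so for 6.89% of all probe sets under HSP990 and 2.84% on vehicle. Foxo1, a transcription factor gene, was also lower (-1.15 ± 0.18 and -1.22 ± 0.16). Its relative Foxo3 was lower on vehicle (-0.38 ± 0.08) and fell by 0.43 after HSP990 in WT mice (-0.43 ± 0.07, limma adjusted p = 0.000415). Rragc, the RagC gene, and Lamtor1, which encodes a lysosomal anchor of the Rag proteins, were higher under HSP990 (0.28 ± 0.07 and 0.30 ± 0.08). The higher count on vehicle was 3 with 1 probe set per gene, without dim probe sets and without R6/2 vehicle replicate 1, R6/2 vehicle replicate 7 or WT HSP990 replicate 2, 4 with array weights, and 2 under 4 more settings and without any 1 of 10 other arrays. Spiny neuron markers were lower in the same arrays, and their part in these values was not tested.

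Genes of the lysosome and of fusion with it were higher in R6/2 mice wherever they were called between genotypes in this fit. Over all genes, 10.7% were higher and 8.71% lower on vehicle, and 21.7% and 10.5% under HSP990. The counts below stand beside these shares. Of 14 vacuolar proton pump genes, 4 were higher in R6/2 mice on vehicle and 8 under HSP990, 3 of them in both, and without the 2 arrays of strongest 3′ bias the counts were 3 and 6. With array weights 4 were higher and 1 lower on vehicle. Atp6ap1, an accessory subunit, read 11.35, 11.70 and 11.89 in R6/2 HSP990 arrays and 11.16, 11.22 and 11.31 in WT HSP990 arrays, which did not overlap (6.89% of all probe sets did not). It was higher by 0.45 ± 0.07 under HSP990 and 0.34 ± 0.08 on vehicle (limma adjusted p = 3.62e-06 and 0.00158). Atp6v1f was higher by 0.29 ± 0.08 under HSP990 and 0.40 ± 0.09 on vehicle. Atp6ap2, an accessory subunit, Atp6v1e1 and Atp6v1h were higher under HSP990 by 0.34 ± 0.06, 0.28 ± 0.06 and 0.29 ± 0.08. Atp6v1e1 was also called lower after HSP990 in WT mice (-0.21 ± 0.06, limma adjusted p = 0.0327). That call was lost without any 1 of 8 arrays and without the 2 arrays of strongest bias. Atp6v1a was higher on vehicle by 0.80 ± 0.23 (limma adjusted p = 0.0158).

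Of 24 genes of lysosomal hydrolases and other luminal proteins such as progranulin, 6 were higher under HSP990 and 2 on vehicle. These counts lie near the shares of all genes called higher (21.7% and 10.7%). The vehicle count was 0 with only the groups compared and 0 to 3 with arrays left out, 0 without R6/2 vehicle replicate 5, and 1 or 2 genes were lower there under 6 of the other settings. Glb1, the beta-galactosidase gene, was higher under HSP990 by 0.73 ± 0.10, with 6.72, 7.02 and 7.30 in R6/2 HSP990 arrays and 6.02, 6.27 and 6.58 in WT HSP990 arrays. Grn, which encodes progranulin, was higher by 0.70 ± 0.11. Neither Glb1 nor Grn was called between genotypes on vehicle or after HSP990 in R6/2 mice. In WT mice Glb1, Grn and Ctsa were called lower after HSP990 (-0.38 ± 0.11, -0.45 ± 0.12 and -0.22 ± 0.06, limma adjusted p = 0.0347, 0.0171 and 0.0257). These WT calls were lost without any 1 of 8, 1 and 4 arrays, and under 2, 1 and 0 other settings. Galns, Gla and Gaa were higher under HSP990 by 0.37 ± 0.09, 0.47 ± 0.12 and 0.45 ± 0.12. Of 9 genes listed as lysosomal membrane proteins, which include the soluble Npc2, 4 were higher under HSP990 and 1 on vehicle. Among the 4 were Cln3 (0.33 ± 0.08), Lamp1 (0.20 ± 0.06) and Pip4p1 (0.22 ± 0.06). Of 13 fusion genes 4 were higher under HSP990 and none was called on vehicle. Stx17, the autophagosomal SNARE, was higher by 0.29 ± 0.08. The fusion count was 1, Stx17, with the 3′ bias as a covariate, 2 with the replicate block, without the 2 arrays of strongest bias and without R6/2 HSP990 replicate 5 alone. In R6/2 mice Gusb, the beta-glucuronidase gene, rose after HSP990 by 0.55 ± 0.11 (limma adjusted p = 0.00365). Calls given with a value for a gene of these lists, members aside, were chosen because they held, unless a loss is stated. They held with each array left out and under every other setting that kept the probe set (9 for the dim Galns and Gla, 10 for the others). This follows from the choice and is no measure of how stable the lists are. Before the choice, 62 values of such calls lost the call under other settings and 625 kept it. With arrays left out 170 lost it and 2038 kept it.

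Over the 32 arrays, with group means subtracted, the gene whose values ran most like Ulk1 1448370_at was Dact3 (Pearson r = 0.76), and like Sqstm1 1450957_a_at Huwe1 (0.94). For Becn1 it was Usp33 (0.80), for Map1lc3a Cdipt (0.92), for Map1lc3b Chmp1b (0.76), for Gabarapl1 Psmd8 (0.90), for Tfeb Epha8 (0.83) and for Lamp2 Hnrnpf (0.89). These values share the arrays' RNA quality and describe likeness only.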

How the data were processed

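Biotin-labelled RNA of the striatum was hybridised to 3′ expression arrays, per the labels' protocols. The deposited values are log2 signals that the authors had normalized between arrays; the method of normalization was not given in the sources used here, and the design text names the RACE software for quality control. Gene symbols were taken from the probe list of the platform (34945 probe sets with 1 symbol, 932 with several, 9160 with none). Arrays were grouped by the labels. A linear model of 4 group means was fitted to 45037 probe sets over all 32 arrays with limma 3.58.1 in R 4.3.3 (data.table, version 1.17.8), with moderated two-sided tests and Benjamini-Hochberg adjustment over all of them. The code was also run on simulated data with independent noise per probe set and array. Such data hold no 3′ bias, so that run says nothing of its effect here. No filter on low values was applied. Where 1 probe set stands for a gene, it is the one with the highest mean. Text names every member probe set, the gene most like each member, and up to 5 called genes per list and comparison by smallest p. The list genes were narrowed, after their values were seen, to calls that held under every setting, unless a loss is stated. Members and lists were chosen with earlier results of these data known. Alternatives were quantile normalization, median centring, removal of dim probe sets, 1 probe set per gene, only the groups compared, trended and robust variance, array weights, the replicate number as a block, the 3′ bias as a covariate, removal of 2 arrays of strong bias (Gapdh 3′ minus 5′ over 2), and each array left out. A change of sign in a value that was called in neither fit was not counted as a reversal. Promoters are from RefSeq (GRCm38.p6), found for 7 of 9 genes.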

Additional observations from a re-analysis of the deposited data

Results flagged for a closer look

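Each group of arrays was examined for a highest or lowest value far from the others, for 22 probe sets in 4 groups; 10 of 88 were found, where chance gives about 1 in 20. R6/2 vehicle replicate 1 gave 4 of them, with the lowest values of its group for Becn1 1460320_at (8.307, others 9.245 to 9.526), Lamp2 1428094_at (8.592, others 9.004 to 9.306), Map1lc3b 1415928_a_at (11.32, others 11.63 to 11.78) and Map1lc3b 1415929_at (9.981, others 10.61 to 10.82). This array had the highest 3′ bias of its group (2.11), and its part in these values was not tested. R6/2 HSP990 replicate 5, with the strongest bias of all arrays (4.56), was lowest for Gabarapl1 1416418_at (9.725, others 10.79 to 11.59) and Gabarapl1 1416419_s_at (11.58, others 11.98 to 12.33). WT HSP990 replicate 2 was highest for Lamp2 1416344_at (10.02, others 8.982 to 9.407) and Lamp2 1434503_s_at (10.21, others 9.371 to 9.752). R6/2 HSP990 replicate 8 was highest for Lamp2 1428094_at (9.473, others 8.98 to 9.196), and WT vehicle replicate 7 for Becn1 1435219_x_at (5.411, others 4.557 to 4.802).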

How the results depend on the processing

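Ulk1 1448370_at in both genotype comparisons, and Lamp2 1416344_at and Map1lc3b 1415928_a_at under HSP990, kept their direction and call with each array left out and under every other setting that held them (9 for Lamp2 1416344_at, which is not in the fit with 1 probe set per gene, and 10 for the others). Over the members' values under the other settings, 970 kept their side of the threshold, 9 gained a call, 13 lost one and 1 reversed: Gabarapl1 1416419_s_at for R6/2 against WT under HSP990, 0.1407 with the 3′ bias as a covariate. The causes of these changes were not tested.

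Member probe sets called for HSP990 in WT mice numbered 1, with 0 under 1 probe set per gene, the 3′ bias covariate and removal of the 2 arrays of strongest bias, 2 with only the groups compared and with array weights, and 0 to 2 with each array left out. For R6/2 against WT on vehicle the 1 call became 2 with quantile normalization and the 3′ bias covariate, 3 with array weights, and 1 to 2 with arrays left out. Under HSP990 the 6 calls became 2 with 1 probe set per gene, where fewer are tested, and 3 (without WT HSP990 replicate 10) to 7 (without R6/2 HSP990 replicate 7) with arrays left out. With the 3′ bias covariate 6 were called, 3 of them shared.

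Of the 129 list genes, the 3 called for HSP990 in R6/2 mice became 1 with only the groups compared and with the 3′ bias covariate, 5 with array weights and with the replicate block, and 1 (without R6/2 vehicle replicate 7) to 8 (without R6/2 vehicle replicate 1). The 9 in WT mice became 15 with array weights and 5 to 11 with arrays left out (5 without WT vehicle replicate 2 or 3). On vehicle the 21 became 12 with only the groups compared, 37 with array weights and 14 to 31 with arrays left out. For the interaction the 0 became 1 with array weights and 0 to 1 with arrays left out.

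Over all probe sets, with 1 per gene the counts were 563 (R6/2 response), 1056 (WT response), 3906 (genotypes on vehicle), 6108 (genotypes under HSP990) and 45 (interaction), against 1267, 2087, 6795, 12261 and 122. The R6/2 response gave 463 with only the groups compared and 794 to 2203 with arrays left out (lowest without R6/2 vehicle replicate 7, highest without R6/2 vehicle replicate 1), and the WT response 3279 with array weights. The interaction gave 306 with array weights, 37 with the 3′ bias covariate, 63 without the 2 arrays of strongest bias, and 74 (without WT vehicle replicate 2) to 365 (without R6/2 vehicle replicate 1) with arrays left out.

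Same-numbered arrays of different groups showed no clear tendency to deviate together (43 pairs, correlations -0.306 to 0.404, 16 over 0.1). Their median was 0.0176, against -0.0271 over 338 differently numbered pairs. No pairing was used in the main fit, and this check cannot exclude a shared batch or pairing. With the replicate number as a block, 71 probe sets were called for the interaction, 5 members under HSP990 in place of 6, and Map1lc3b 1428024_at was not called (adjusted p = 0.0903). Probe sets near the median signal (5.77) limit what can be read from Ulk1 1416504_at, Sqstm1 1444021_at, Map1lc3b 1428024_at and 3 of the 5 of Becn1.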
